A study of Drosophila melanogaster with 8 samples.

Results

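The genes described here are 9 members of insulin and TOR signalling in Drosophila melanogaster S2 cells: the insulin receptor InR, its substrate chico, the kinases Pdk1, Akt, S6k and mTor, the transcription factor foxo, and the TOR inhibitors gig and Sesn. They were taken as probe sets whose single gene symbol was one of these names. The kinase listed as Tor stands under its current symbol mTor and was matched through a synonym, so that the torso gene, whose symbol is tor, was not taken for it. Each of the 9 had 1 probe set, out of 17104 features of the array when 1 probe set is kept for each gene.

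S2 cells are a wild-type fly line of embryonic origin with features of haemocytes, which are blood cells. They were treated with double-stranded RNA (dsRNA) against DENR, or with dsRNA against GFP, which has no target in these cells, as the control. RNA associated with single (80S) ribosomes and polysomes, called translated RNA here, and total RNA were hybridised to oligonucleotide arrays, 1 sample an array. The 4 groups of 2 arrays were DENR translated, GFP translated, DENR total and GFP total. All share the cell line and the wild-type genotype, and no length of treatment is given in the sources used here. Both samples of each group are described as biological replicates. The p-values rest on the spread between replicates, pooled over the 4 groups and drawn toward that of all features tested.

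Insulin-like peptides bind InR, and chico then joins the receptor to phosphoinositide 3-kinase, whose lipid product brings Pdk1 and Akt to the membrane. Active Akt keeps foxo out of the nucleus and relieves the block that the gig-Tsc1 complex places on Rheb and TOR, while sestrin restrains TOR under stress. S6k is a main target of TOR in the control of cell growth. DENR, together with MCTS1, lets ribosomes start again after translating a short upstream open reading frame, and the question asked of these genes was whether their mRNAs change in amount or in ribosome association when DENR is depleted. InR has been proposed as a target of DENR.

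Array values were log2 signals between 0.83 and 12.88, with array medians from 2.32 to 2.48. With 2 arrays a group, their number limits the precision. DENR itself had log2 signals of 5.40 and 4.46 on the DENR translated arrays, against 8.41 and 8.26 on the GFP translated arrays. On the DENR total arrays it read 7.38 and 7.60, against 8.28 and 8.18 on the GFP total arrays. The DENR difference passed in translated RNA (-3.40 ± 0.25, adjusted p = 0.000203 by limma, n = 2 per group). It did not pass in total RNA (-0.74 ± 0.25, adjusted p = 0.170 by limma). All 10 haemocyte markers had a probe set and 9 of them had a mean above 5, whereas the neuron, muscle and fat body markers with a probe set stayed between 1.07 and 3.82. Of 2 germline markers with a probe set, 1, aub, had a mean above 5. The summed log2 signal of the haemocyte list lay at 72.12 to 72.90 on DENR translated arrays, against 81.90 to 82.29 on GFP translated arrays, and at 66.93 to 69.76 on DENR total arrays, against 75.71 to 76.63 on GFP total arrays. The members of the list did not move alike. He, Hml, NimC1 and Sr-CI fell in both fractions, with differences from -2.59 to -1.09 in translated RNA, and the other 6 did not pass. Of these, srp (-0.83), eater (-0.67), vkg (-0.60), Col4a1 (-0.43) and Pxn (-0.22) also lay below 0 in translated RNA. Only crq lay above 0 there, by 0.20, and it differed by 0.16 in total RNA, where Pxn differed by 0.19. The part of this shift in the results below was not tested. The first DENR total array stood apart from its mate, with a score of -9.01 on the leading principal component (65.8% of variance), where the second DENR total array scored -27.26 and the GFP total arrays -29.64 and -35.07.

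Of the 9 genes, 8 were bright enough to be tested and foxo was not. The test kept the brightest 60% of features, those with a mean log2 signal of at least 2.12, which left 10262. InR (mean log2 signal 3.16, at the 59.2 percentile of all features) and chico (3.59, at the 62.2 percentile) were the dimmest members tested. The other 6 tested members lay between the 74.2 and 84.7 percentiles. InR on all arrays, and chico in total RNA, read between 2.40 and 3.52, not far above the array medians, where background can understate a difference.

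**Figure D1:**
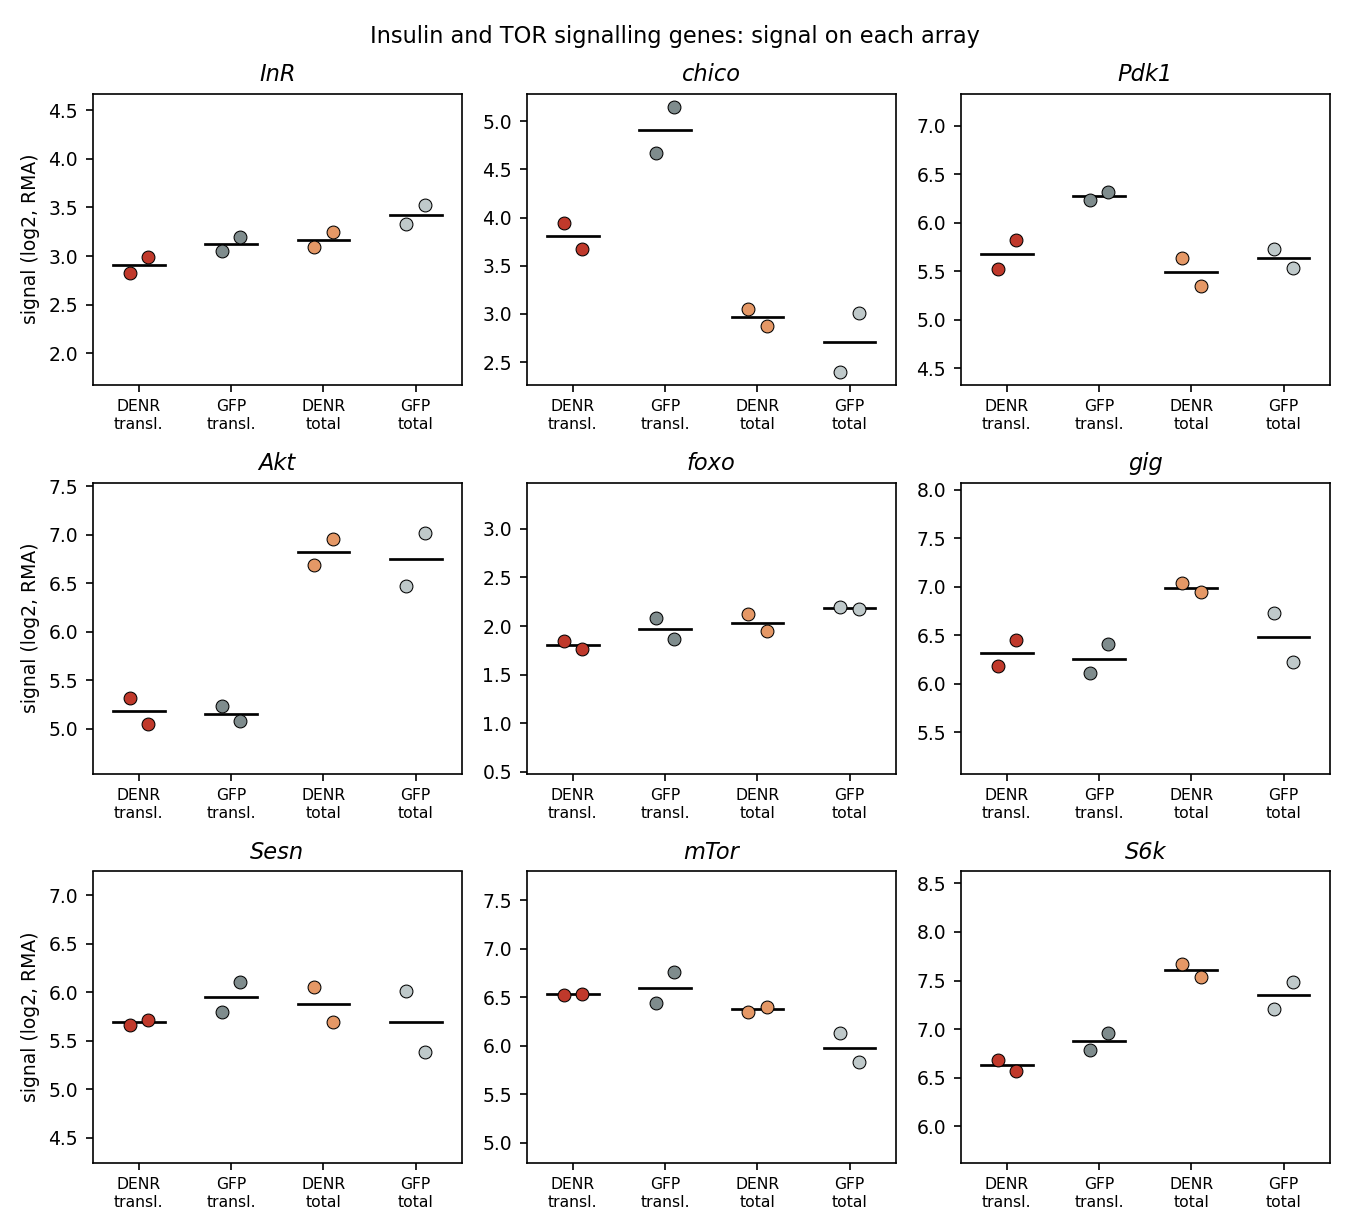
Signal of the 9 genes on each of the 8 arrays (log2, RMA; points are arrays, horizontal bars group means, n = 2; every panel spans at least 3 log2 units). chico stood highest on the GFP translated arrays, at 4.66 and 5.15, while Akt and S6k stood higher on all 4 total arrays than on all 4 translated arrays.

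In the comparison of DENR and GFP dsRNA in translated RNA, chico was the 1 of 8 tested members that passed the adjusted test. Its log2 signal was 3.94 and 3.67 on the DENR translated arrays, against 4.66 and 5.15 on the GFP translated arrays. Both DENR arrays lay below both GFP arrays. The difference of -1.10 ± 0.22 (log2, SE, n = 2 per group, 95% interval -1.60 to -0.60) had adjusted p = 0.0471 (limma, Benjamini-Hochberg over all 10262 features). Of all features 1.34% passed in this comparison, 0.653% higher and 0.692% lower with DENR dsRNA. In these bulk samples, fewer cells expressing a gene and less of its RNA per cell cannot be told apart. A comparison of translated RNA alone cannot set apart less of the RNA on ribosomes either.

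The call of chico rested on every translated array. Without the first or the second DENR translated array its difference was -1.23 or -0.97, with adjusted p = 0.206 or 0.286 by limma, and without the first or the second GFP translated array it was -1.34 or -0.86, with adjusted p = 0.0957 or 0.345. It also missed the threshold with array medians centred (adjusted p = 0.0771 by limma) and with the brightest 40% of features (0.0547). A random block for the culture lost the call too (0.0643). The titles name no culture, so it was inferred from the dsRNA and the replicate number. The sign stayed below 0 in all 20 alternatives, of which 12 kept the call. It could change only where a translated array was left out or the values were rescaled. Leaving out a total array, or changing the block or filter, cannot move this difference, which stayed at -1.10.

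**Figure D2:**
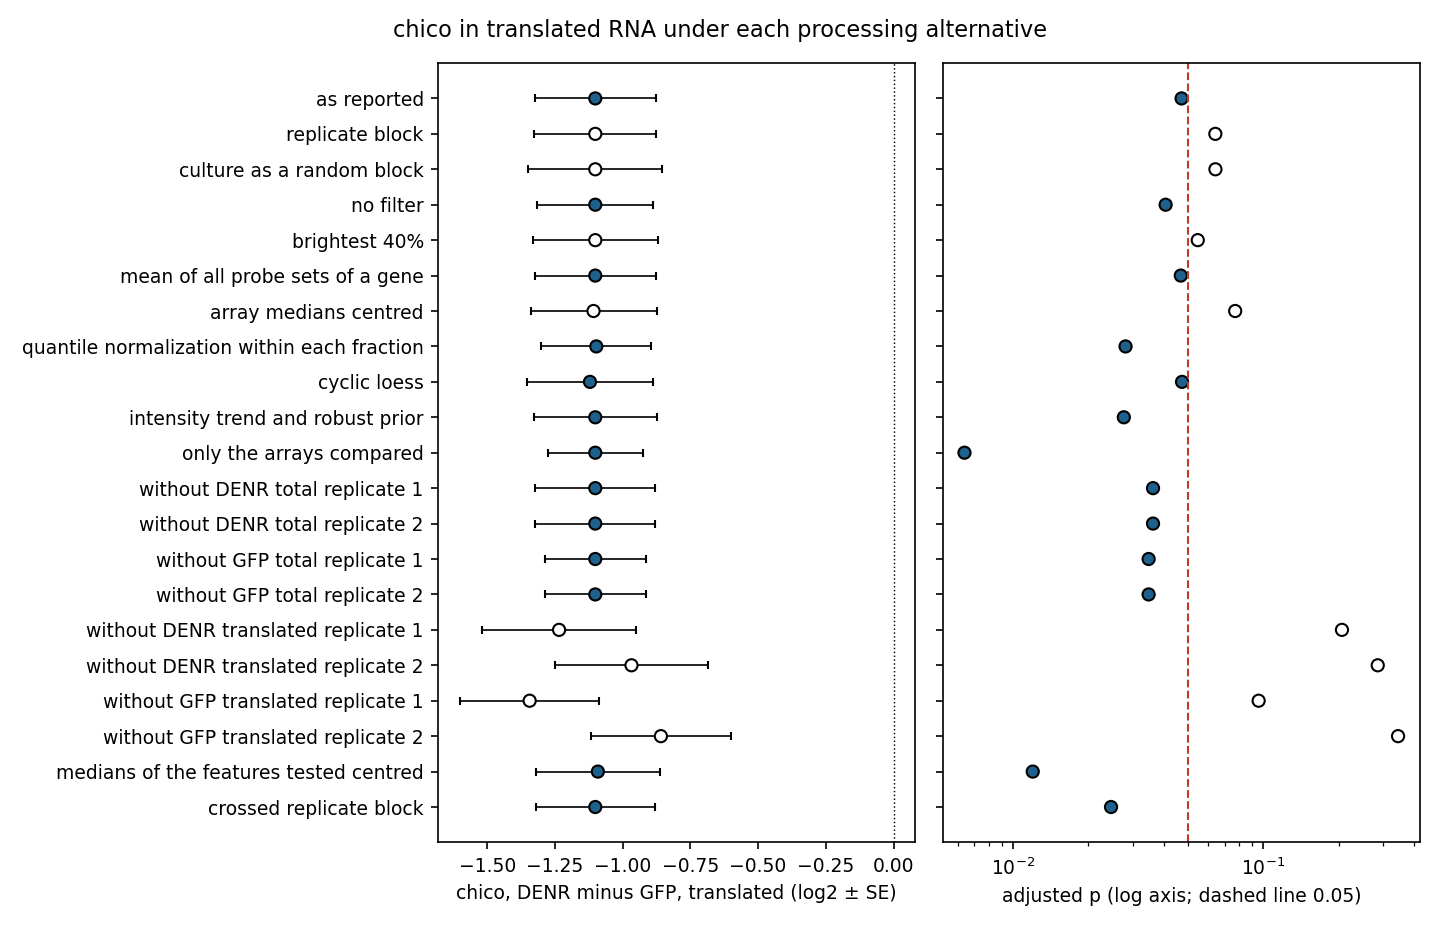
chico, DENR minus GFP in translated RNA, under the reported setting and 20 alternatives (left, log2 difference with its SE; right, adjusted p on a log axis with the threshold of 0.05 as a dashed line; filled points pass it). The differences lie between -1.34 and -0.86, and the adjusted p crosses the threshold in several settings, among them each removal of a translated array.

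Pdk1, the kinase that phosphorylates Akt and S6k, had the next largest difference in translated RNA. Its log2 signal was 5.53 and 5.83 on the DENR translated arrays, against 6.24 and 6.31 on the GFP translated arrays, with no overlap. The difference of -0.60 ± 0.16 (95% interval -0.95 to -0.24) did not pass the test (adjusted p = 0.122 by limma, n = 2 per group). It passed in 2 of 20 alternatives, 1 of them with only the 4 translated arrays in the fit (adjusted p = 0.0460 by limma). The other was a crossed replicate block, added after seeing the data.

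The receptor InR read 2.83 and 2.99 on the DENR translated arrays, against 3.05 and 3.19 on the GFP translated arrays. Both DENR arrays lay below the GFP arrays, and the difference of -0.22 ± 0.14 (95% interval -0.53 to 0.10) did not pass (adjusted p = 0.591 by limma, n = 2 per group). S6k read 6.68 and 6.57 on the DENR translated arrays, against 6.78 and 6.96 on the GFP translated arrays, a difference of -0.24 ± 0.15 that did not pass either. Sesn read 5.66 and 5.72, against 5.79 and 6.10 on the GFP translated arrays (-0.26 ± 0.21). In this fraction the DENR arrays of 5 of the 8 tested members lay below the GFP arrays and those of 0 lay above, where 23.8% of all features lay below and 23.3% above (47.1% in either direction).

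The other tested members had overlapping arrays in translated RNA. Akt, the kinase that controls foxo, read 5.32 and 5.05 on the DENR translated arrays, against 5.23 and 5.08 on the GFP translated arrays (0.03 ± 0.20, 95% interval -0.41 to 0.47). The TOR inhibitor gig read 6.18 and 6.45 with DENR dsRNA, against 6.11 and 6.41 with GFP dsRNA (0.06 ± 0.19). mTor read 6.53 and 6.53 with DENR dsRNA, against 6.44 and 6.76 with GFP dsRNA (-0.07 ± 0.16). Over the 8 tested members the median difference in translated RNA was -0.23, against -0.00 over all features tested (-0.0025).

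In total RNA, 0 of the 8 tested members passed the adjusted test by limma, where 1.58% of all features did (0.877% higher and 0.702% lower with DENR dsRNA). Among the members, 2 had an unadjusted p under 0.05, as did 17.6% of all features. The first of these, gig, the fly TSC2, read 7.04 and 6.95 on the DENR total arrays, against 6.73 and 6.23 on the GFP total arrays. Both DENR arrays lay above both GFP arrays, by 0.51 ± 0.19 on average (95% interval 0.09 to 0.94, adjusted p = 0.202 by limma, n = 2 per group). mTor, the TOR kinase, read 6.34 and 6.40 on the DENR total arrays, against 6.13 and 5.83 on the GFP total arrays, again without overlap (0.39 ± 0.16, 95% interval 0.04 to 0.74, adjusted p = 0.237 by limma, n = 2 per group). Without the first DENR total array these differences were 0.47 for gig and 0.42 for mTor, but without the second GFP total array they were 0.26 and 0.24. Centring the medians of the features tested moved the median of all features by -0.19 in total RNA, which left 0.32 for gig and 0.20 for mTor. Of 20 alternatives, 1 brought gig past the adjusted test, a crossed replicate block added after seeing the data, and 0 did so for mTor.

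S6k read 7.67 and 7.54 on the DENR total arrays, against 7.20 and 7.49 on the GFP total arrays (0.26 ± 0.15). InR read 3.09 and 3.25 on the DENR total arrays, against 3.33 and 3.52 on the GFP total arrays (-0.26 ± 0.14, 95% interval -0.57 to 0.06, adjusted p = 0.375 by limma, n = 2 per group). The DENR arrays of InR thus lay below the GFP arrays in both fractions. chico, in contrast to its values on ribosomes, read 3.06 and 2.87 on the DENR total arrays, against 2.40 and 3.01 on the GFP total arrays, which overlapped (0.26 ± 0.22, 95% interval -0.24 to 0.76).

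For the remaining tested members the total arrays of the groups overlapped as well. Akt read 6.68 and 6.95 on the DENR total arrays, against 6.47 and 7.02 on the GFP total arrays. Pdk1 read 5.63 and 5.35 with DENR dsRNA, against 5.73 and 5.53 with GFP dsRNA, and Sesn read 6.05 and 5.70 with DENR dsRNA, against 6.01 and 5.39 with GFP dsRNA. The DENR arrays lay above the GFP arrays for 3 tested members and below for 1, where 24.5% and 21.5% of all features did (46.0% in either direction). The median difference of the tested members in total RNA was 0.22, against 0.02 over all features. The splits of calls over all features in total RNA, 90 higher and 72 lower as reported, became 56 and 156 with the medians of the features tested centred and 88 and 112 with cyclic loess.

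The transcription factor foxo was below the filter, with a mean log2 signal of 2.0, under every array median. It read 1.85 and 1.76 on the DENR translated arrays, against 2.08 and 1.87 on the GFP translated arrays, and 2.12 and 1.95 on the DENR total arrays, against 2.20 and 2.18 on the GFP total arrays. DENR arrays were the lower ones in both fractions, by 0.17 and 0.15 on average. These values are at the level of background, and foxo had no call in the fit without a filter (adjusted p = 0.820 in translated and 0.671 in total RNA by limma, n = 2 per group).

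**Figure D3:**
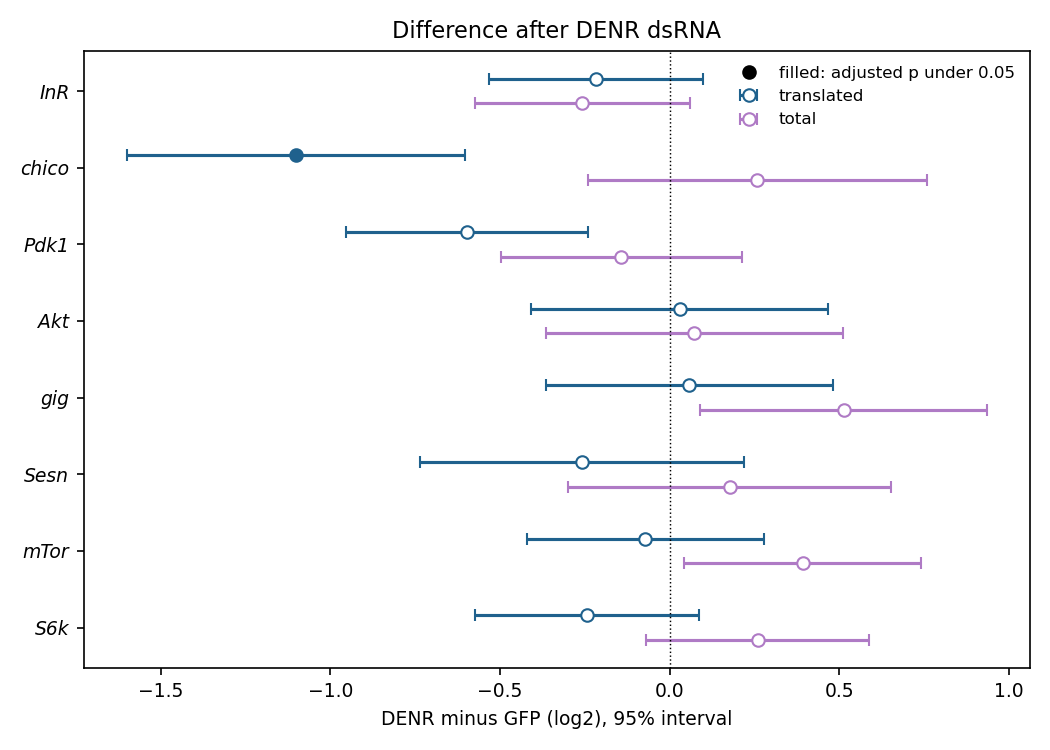
Difference between DENR and GFP dsRNA (log2, points with 95% intervals from the limma fit, n = 2 arrays per group) for the 8 tested members in translated and in total RNA. The interval of chico in translated RNA, -1.60 to -0.60, is the filled point, and chico, Sesn, mTor and S6k lie below 0 in translated RNA and above 0 in total RNA, though 1 array left out turns the sign of chico and Sesn in total RNA and of mTor in translated RNA.

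Ribosome loading was taken as the DENR minus GFP difference in translated RNA less that in total RNA, an interaction term of the same fit. Of the 8 tested members 0 passed the adjusted test by limma and 2 had an unadjusted p under 0.05. Over all features 0 passed as well (a background of 0%), with 1022, or 9.96%, at an unadjusted p under 0.05. chico had the largest loading difference of the members, -1.36 ± 0.32 (log2, SE, 95% interval -2.07 to -0.65, unadjusted p = 0.00159 and adjusted p = 0.480 by limma, n = 2 per group). Its adjusted p ran from 0.0940 to 0.941 over the alternatives. S6k followed with -0.50 ± 0.21 (unadjusted p = 0.0368 and adjusted p = 0.480 by limma, n = 2 per group).

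Another 4 members had loading differences of nearly the same size, from parts that differed between the fractions. Pdk1 (-0.46 ± 0.23) had differences of -0.60 in translated and -0.14 in total RNA. mTor (-0.46 ± 0.22) had -0.07 in translated and 0.39 in total RNA, gig (-0.45 ± 0.27) had 0.06 in translated and 0.51 in total RNA, and Sesn (-0.43 ± 0.30) had -0.26 in translated and 0.18 in total RNA. Akt (-0.04 ± 0.28) and InR (0.04 ± 0.20, 95% interval -0.41 to 0.49) lay near 0. InR had a low signal (mean log2 signal 3.16), where background can understate a difference. RNA with a ribosome only on an upstream open reading frame also counts as translated RNA here, so these values cannot show a loss of re-initiation. Whether InR is a target of DENR was not tested.

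Thus 7 of the 8 tested members had a loading value below 0, with a median of -0.45, against -0.02 over all features, of which 47.4% lay above 0. Without the first DENR total array chico had a loading difference of -1.27, S6k -0.44, mTor -0.49, gig -0.41, Pdk1 -0.31 and Sesn -0.26, and InR turned to -0.04. Other arrays moved these values further. Without the second GFP total array gig had -0.20, Sesn -0.12 and mTor -0.31, and Akt ran from -0.32 to 0.23 over the arrays left out. With the medians of the features tested centred, a scaling that moved the median of all features by 0.20 in this comparison, Akt and InR lay at 0.16 and 0.24 and the other 6 members stayed below 0.

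**Figure D4:**
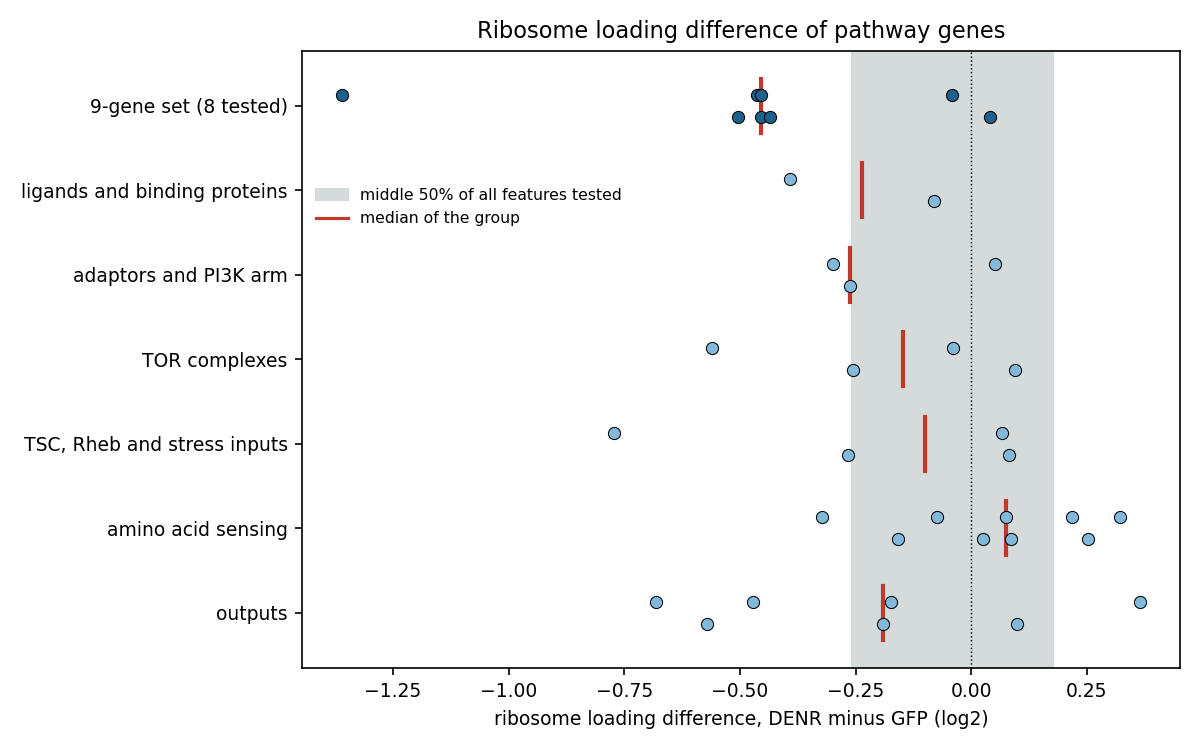
Ribosome loading difference, DENR minus GFP (log2), of the 8 tested members and of 29 tested genes of the wider pathway by role; each point is a gene, red bars are group medians and the grey band holds the middle 50% of all 10262 features. chico lies lowest at -1.36, 5 members lie between -0.50 and -0.43, and Akt and InR lie near 0.

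The arrays of translated and total RNA were then compared within each dsRNA treatment, which asks how far each transcript is represented on ribosomes relative to its level in the cell. RMA in general brings arrays to a common distribution of signals, so that a difference is relative to the other transcripts. With DENR dsRNA, chico rose in translated over total RNA and Akt, S6k and gig fell, 4 of 8 tested members, where 15.0% of all features passed (9.13% higher and 5.85% lower). With GFP dsRNA, chico, Pdk1 and mTor rose and Akt and S6k fell, 5 of 8, where 29.6% passed (18.7% higher and 11.0% lower). With DENR dsRNA the translated arrays of 2 tested members lay above the total arrays and those of 4 below, against 27.1% and 28.7% of all features (55.8% in either direction). With GFP dsRNA these counts were 3 and 3, against 31.3% and 33.9% of all features (65.2% in either direction). The count with DENR dsRNA was 2 without the second DENR total array or either DENR translated array. That with GFP dsRNA was 2 without the second GFP total or second GFP translated array and 3 without the first GFP translated array. These comparisons share arrays with those between the dsRNA treatments.

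chico had the largest positive difference. With DENR dsRNA it was 0.84 ± 0.22 (log2, a 1.79-fold higher signal, adjusted p = 0.0309 by limma, n = 2 per group), and with GFP dsRNA 2.20 ± 0.22 (4.60-fold higher, adjusted p = 0.000144). The 4 groups of chico thus ran, from the highest mean, GFP translated (4.91), DENR translated (3.81), DENR total (2.96) and GFP total (2.70). Only the neighbours DENR total and GFP total overlapped in their arrays. The call with GFP dsRNA held in all 20 alternatives, whereas that with DENR dsRNA was lost without the second DENR total array (adjusted p = 0.131) and without the first or the second DENR translated array (0.201 and 0.0796, by limma), and with a random block for the culture (0.0854).

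Akt fell in translated over total RNA in both treatments. It had 5.32 and 5.05 on DENR translated arrays, against 6.68 and 6.95 on DENR total arrays, a difference of -1.63 ± 0.20 (3.10-fold lower, adjusted p = 0.000673 by limma, n = 2 per group). With GFP dsRNA the difference was -1.59 ± 0.20 (3.01-fold lower, adjusted p = 0.000359 by limma, n = 2 per group). Both calls held in all 20 alternatives. All 4 translated arrays of Akt lay more than 1 log2 unit below all 4 total arrays.

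S6k also fell in translated over total RNA in both treatments, by 0.98 ± 0.15 with DENR dsRNA (1.97-fold, adjusted p = 0.00219 by limma, n = 2 per group) and by 0.47 ± 0.15 with GFP dsRNA (1.39-fold, adjusted p = 0.0355). The call with DENR dsRNA held in all 20 alternatives and that with GFP dsRNA in 11. That with GFP dsRNA was lost without the second GFP total array (adjusted p = 0.208 by limma), without the first or the second GFP translated array (0.182 and 0.0779) and without either DENR translated array (0.0563 each).

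Pdk1 and mTor passed the test with GFP dsRNA but not with DENR dsRNA. The difference between the treatments is the loading value above, which passed for neither gene. Pdk1 differed by 0.19 ± 0.16 with DENR dsRNA and by 0.64 ± 0.16 with GFP dsRNA (adjusted p = 0.523 and 0.0130 by limma, n = 2 per group). mTor differed by 0.16 ± 0.16 with DENR dsRNA and by 0.62 ± 0.16 with GFP dsRNA (adjusted p = 0.60 and 0.0143 by limma, n = 2 per group). The call of Pdk1 was lost without the second GFP total array (adjusted p = 0.0849) and without the first or the second GFP translated array (0.0505 and 0.0865), and that of mTor without the second GFP total (0.102) or the second GFP translated array (0.131, all by limma). With the medians of the features tested centred both were lost as well (adjusted p = 0.221 and 0.276), a scaling in which the median of all features moved by -0.38 with GFP dsRNA and the split of higher and lower calls turned to 1093 and 4547, against 1915 and 1125 as reported. With array medians centred that split was 2039 and 711. With DENR dsRNA, centring the medians of the features tested gave 655 higher and 1140 lower calls, against 937 and 600 as reported.

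The TOR inhibitor gig had -0.67 ± 0.19 in DENR dsRNA cells (adjusted p = 0.0396 by limma, n = 2 per group) and -0.22 ± 0.19 in GFP dsRNA cells, which did not pass. Its loading value, the difference between the treatments, did not pass either. With the medians of the features tested centred, gig passed in both treatments (-0.85 with DENR dsRNA and -0.60 with GFP dsRNA, adjusted p = 0.00293 and 0.0139 by limma). Its call held in 11 of 20 alternatives and was lost without either DENR total array (adjusted p = 0.106 and 0.0928), either DENR translated array (0.243 and 0.0811) or either GFP translated array (0.0517 each, by limma). InR differed by -0.26 ± 0.14 with DENR dsRNA and by -0.30 ± 0.14 with GFP dsRNA, without overlap of arrays and without a call. With the medians of the features tested centred, InR with GFP dsRNA had -0.69 and passed (adjusted p = 0.00827 by limma). Its GFP total arrays stood above all others, and its DENR total and GFP translated arrays overlapped. Sesn differed by -0.19 ± 0.21 with DENR dsRNA and by 0.25 ± 0.21 with GFP dsRNA, with overlapping arrays in both.

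**Figure D5:**
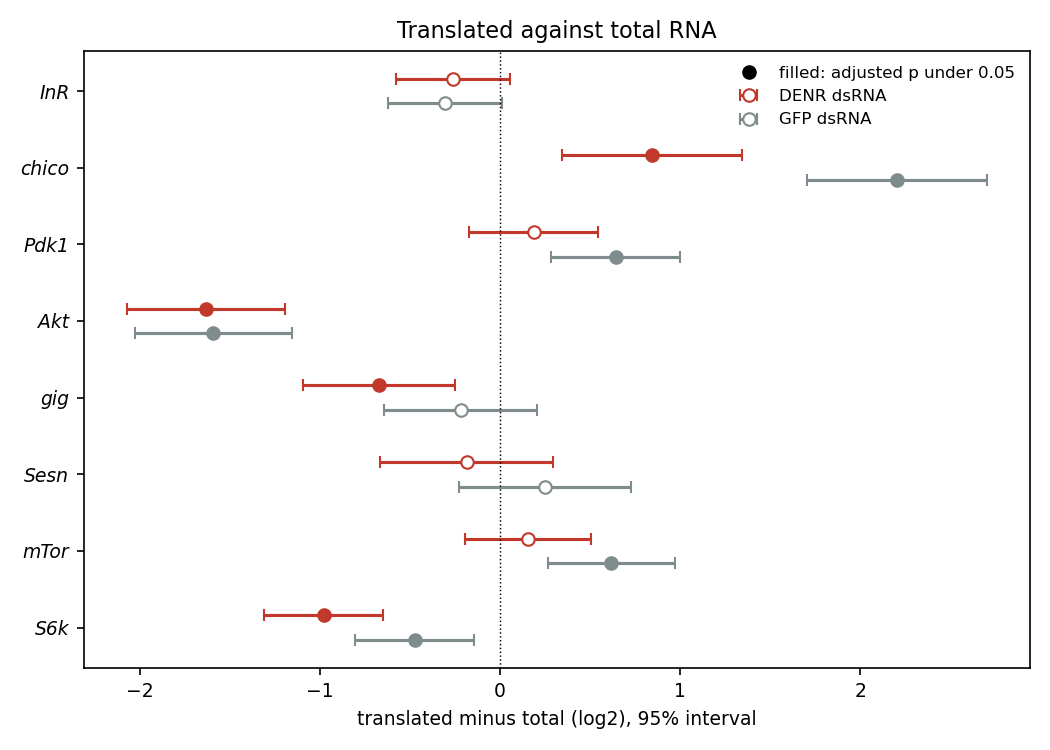
Difference between translated and total RNA (log2, points with 95% intervals from the limma fit, n = 2 arrays per group) in DENR and in GFP dsRNA cells for the 8 tested members; filled points pass the adjusted test. chico lies at 0.84 and 2.20 and Akt at -1.63 and -1.59, while 6 members have a lower value with DENR than with GFP dsRNA by 0.43 or more. This gap is the ribosome loading difference, which passed for 0 of the 8 tested members. Leaving out 1 array brought it as near 0 as -0.12 for Sesn and -0.20 for gig.

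The rest of the pathway was represented by 53 genes listed by role, of which 34 had a probe set of their own and 29 were tested. The other 19, among them Rheb and Thor, were not analysed here. Between DENR and GFP dsRNA, 0 of the 29 passed by limma in translated RNA, in total RNA or in ribosome loading, with 5, 5 and 1 at an unadjusted p under 0.05, where 13.2%, 17.6% and 9.96% of all features were. Their median difference was 0.02 in translated RNA and 0.11 in total RNA, and -0.08 in ribosome loading.

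Genes of smallest p in total RNA were Tsc1, the partner of gig, Nprl3, a subunit of the GATOR1 complex that restrains TOR, and Sik3, a salt-inducible kinase. Tsc1 had log2 signals of 6.85 and 6.72 on the DENR total arrays, against 6.31 and 5.84 on the GFP total arrays (0.71 ± 0.17, adjusted p = 0.0686 by limma, n = 2 per group). Tsc1 and gig, which form 1 complex, both had DENR total arrays above the GFP total arrays, as did 24.5% of all features. Neither passed the adjusted test. In translated RNA, Tsc1 read 6.63 and 6.73 with DENR dsRNA, against 6.24 and 6.24 with GFP dsRNA, while gig overlapped. Nprl3 differed by 0.62 ± 0.16 and Sik3 by 0.81 ± 0.25, neither past the adjusted test.

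In translated RNA, Nprl3 (0.55 ± 0.16), Wdr59 of the GATOR2 complex (0.46 ± 0.13) and the ribosomal RNA transcription factor Tif-IA (-0.53 ± 0.17) had the smallest p, with adjusted p from 0.147 to 0.217 by limma (n = 2 per group). In ribosome loading these were Tif-IA (-0.68 ± 0.25), Sik3 (-0.77 ± 0.35) and the cap-binding protein eIF4E1 (-0.47 ± 0.23). By role, the 9 tested genes of amino acid sensing had a median of 0.26 in translated RNA and 0.17 in total RNA. The 7 tested outputs had -0.34 in translated RNA and 0.11 in total RNA, and the 4 tested genes of TOR complexes -0.02 and 0.17. The 4 tested genes of TSC, Rheb and stress inputs had 0.10 in translated RNA and 0.40 in total RNA, the 3 tested adaptors and PI3K genes -0.15 and 0.12, and the 2 tested ligands and binding proteins -0.16 and 0.08. Of the ligands, 4 with a probe set, Ilp2, Ilp5, Ilp7 and Ilp8, read between 1.16 and 2.47 on all arrays, near background, whereas the binding protein ImpL2 read between 8.37 and 8.90.

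Translated against total RNA, 5 of the 29 passed with DENR dsRNA, 4 higher and 1 lower, and 9 passed with GFP dsRNA, 7 higher and 2 lower. These counts are near the 15.0% and 29.6% of all features that passed and are no result about the pathway. Those higher in both treatments were Tif-IA (1.43 ± 0.17 with DENR dsRNA and 2.11 ± 0.17 with GFP dsRNA), Sik3 (1.19 ± 0.25 and 1.97 ± 0.25), the PP2A subunit wdb (0.96 ± 0.18 and 1.26 ± 0.18) and the TOR-restrained transcription factor REPTOR (0.74 ± 0.21 and 0.92 ± 0.21). Lpin, a lipin, fell by 0.52 ± 0.13 with DENR dsRNA. With GFP dsRNA, eIF4E1 (0.78 ± 0.17), trbl, the fly tribbles (0.83 ± 0.23), and the TOR partner Lst8 (0.68 ± 0.20) rose, and AMPKalpha (-0.42 ± 0.13) and scyl, a stress inhibitor of TOR (-0.62 ± 0.17), fell. These counts depended on single arrays. With DENR dsRNA 3 passed without the second DENR total or the first DENR translated array and 1 without the second DENR translated array. With GFP dsRNA 5 passed without the second GFP total or the first GFP translated array and 3 without the second GFP translated array.

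The genes whose profile over the 8 arrays lay closest to each member were found by the root mean square difference of log2 values centred on each gene's mean. For chico these were qless and CG6700, at 0.28 and 0.30, against a median of 0.92 over 8163 named genes. For InR they were CG3568 and CG17564 (0.05 and 0.06), for Pdk1 THG and CG7878 (0.06 and 0.07) and for Akt shot and pAbp (0.19 and 0.20). gig lay closest to dl and Mocs1 (0.07 and 0.09), Sesn to ago and CG30273 (0.04 and 0.06), mTor to spri and Cyp6d4 (0.07 and 0.08) and S6k to Mkk4 and wech (0.12 and 0.14). No member was among the nearest genes of another. A gene of small spread over the arrays lies close to many others by this measure.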

How the data were processed

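The authors deposited a log2 signal for each probe set. Per the submitters' processing notes the authors used RMA, with neither version nor settings stated. The log2 scale was read from the range of values. The sources used here do not say if the 8 arrays were normalized jointly. RMA removes a change shared by most transcripts. Per the labels' protocols, RNA was extracted with Trizol and labelled as biotinylated cRNA.

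Of 18952 probe sets, 183 control sets were left out, and 13647 of the rest had 1 symbol. Symbols were updated by gene identifier through a RefSeq gene table (13544 matched). A gene was represented by its probe set of highest mean, and the brightest 60% of 17104 features were kept, which left 10262 features, 8164 of them named genes. Only 1 probe set stands for each of the 9 genes, and those of Akt and Pdk1 are of a design that can match more than 1 transcript.

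All comparisons came from 1 fit of 4 group means to 8 arrays (limma 3.58.1, R 4.3.3; 4 residual and 5.93 prior degrees of freedom), two-sided, with Benjamini-Hochberg adjustment over all features at 0.05. The scripts were tested on simulated data. Figures were drawn with matplotlib 3.10.9.

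The members and lists were chosen with earlier results of these data known. By the rule for names, the 9 genes and DENR were described, and from the wider list every called gene and the 3 of smallest p in each DENR comparison. Names outside it, in role summaries, were chosen after values were seen. As alternatives, the replicate number or the culture, inferred from dsRNA and replicate number, entered as a block. The culture was a random effect, with a correlation of -0.257 within blocks. Filters, scalings and the prior were also changed, and probe sets of a gene were averaged. Only the compared arrays were fitted, and each array was left out in turn. The centring of medians over tested features and a crossed block were added after seeing the data.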

Additional observations from a re-analysis of the deposited data

Results flagged for a closer look

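S6k drew attention because its DENR arrays lay above its GFP arrays in total RNA and below them in translated RNA, with no overlap in either fraction. Of all features, 24.5% lay above in total RNA and 23.8% below in translated RNA. The nearest arrays were close, at 7.54 against 7.49 in total RNA and 6.68 against 6.78 in translated RNA. The haemocyte marker Pxn had the same order. The test below uses the values for which S6k was picked. The difference between the fractions was -0.50 ± 0.21 (log2, SE, n = 2 per group) and, tested as an interaction term, did not pass (unadjusted p = 0.0368, adjusted p = 0.480 by limma). Over the alternatives this value ran from -0.65 to -0.30, with an adjusted p from 0.224 to 0.941.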

How the results depend on the processing

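Of 787 differences of the 8 tested genes recomputed over 20 alternatives, 745 kept their side of the threshold, 37 lost the call, 5 gained it and 0 reversed a call, while 32 uncalled values changed sign. In translated RNA, DENR minus GFP, the count of called members became 0 with the replicate block, with a random block for the culture, with the brightest 40% of features and with array medians centred, 2 with only the arrays compared, and ran from 0 to 1 with each array left out. In total RNA and ribosome loading it was 0 in every alternative but the crossed block below. For translated minus total RNA with DENR dsRNA it became 2 with the random block and ran from 2 to 4 with arrays left out, and with GFP dsRNA from 2 to 5. Of the wider list, 5 were called with the random block and 16 with the medians of tested features centred, against 9, for translated minus total RNA with GFP dsRNA (3 to 9 with arrays left out, and 1 to 6 with DENR dsRNA), and 1 in translated RNA with only the arrays compared (0 to 1 in total RNA with arrays left out). The cause of these changes was not tested. With the replicate block chico had -1.10 in translated RNA with adjusted p = 0.0643, S6k with GFP dsRNA 0.0529 and gig with DENR dsRNA 0.0588 (limma, n = 2 per group). Deviations of same-numbered arrays correlated at -0.31 between DENR total and DENR translated and at -0.20 between GFP total and GFP translated. Between treatments within a fraction they correlated at 0.38 and 0.27. The reported fit did not take the numbers as pairs, so it left out the likeness of same-numbered arrays within a fraction. The random block for the culture paired the numbers between fractions, where the correlations were negative. A crossed replicate block paired same numbers within a fraction and opposite numbers between fractions. It called 1 member in total RNA, gig (adjusted p = 0.0394 by limma), and 2 in translated RNA, chico and Pdk1. Of the wider list it called 3, 1 and 8 genes in total RNA, translated RNA and translated minus total RNA with DENR dsRNA. Over all features, calls ran from 39 to 903 in total RNA (162 as reported), from 23 to 413 in translated RNA (138), from 609 to 2376 with DENR dsRNA (1537) and from 1672 to 5640 with GFP dsRNA (3040) between fractions, and from 0 to 6 in ribosome loading. Signals near background limit InR, foxo and chico in total RNA, and InR dropped out with the brightest 40% of features.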
